A study of Rattus norvegicus with 15 samples.

Results

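The 6 genes considered here, of renal sodium and acid handling, were followed across kidneys of rats aged 5 weeks: the sodium-hydrogen exchangers Slc9a2, Slc9a3 and Slc9a4, the PDZ scaffolds Nherf1 and Nherf2, and the membrane-cytoskeleton linker Ezr (ezrin). Every probe set whose platform symbol was one of these genes or its older name (Slc9a3r1 for Nherf1, Slc9a3r2 for Nherf2) was taken, which gave 6 of the 10969 named genes and 11 of the 26379 probe sets on 3 designs of oligonucleotide array, called A, B and C here. Design A carried 4 of them, for Slc9a2, Slc9a3, Slc9a4 and Ezr, design B carried 5, of which 4 were for Nherf2 and 1 for Nherf1, and design C carried 1 for each scaffold. The members were chosen with the strain differences of these arrays known, among them that of Nherf2 on design C, so the strain differences of the scaffolds are given as a description, without a p-value.

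The study compared congenic rats, which carry a donor segment of chromosome 10 on the Dahl background, with Dahl salt-sensitive rats (Dahl S), an inbred strain that becomes hypertensive when fed much salt. Total RNA of kidney was hybridised to 15 arrays, 5 per design, and each sample is called a kidney here by its number, although the descriptions speak of kidneys in the plural. On designs B and C, kidneys 4 and 5 are described as congenic (n = 2) and kidneys 1 to 3 as Dahl S (n = 3). On design A all 5 are described as Dahl S, but kidneys 4 and 5 are numbered like the congenic ones of B and C, so their strain is unsettled and they entered no comparison. The sources used here give neither donor strain, extent of the segment, sex nor diet. They also do not say whether each kidney is from its own animal, and the spread between kidneys may be technical. Nor do they say whether a number stands for the same kidney on each design. If it does, the values of B and C are not independent.

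Sodium-hydrogen exchangers swap a luminal or extracellular sodium ion for a proton from the cell. Slc9a3 (NHE3) does so in the brush border of the proximal tubule and in the thick ascending limb, and it carries much of the sodium and bicarbonate reabsorption of the nephron. Nherf1 and Nherf2 each hold a pair of PDZ domains and an ezrin-binding tail. They tie Slc9a3 and other membrane proteins to ezrin and, through it, to actin, and they bring protein kinase A to the exchanger. Nherf1 is a protein of the proximal tubule brush border, where it also holds the phosphate transporter Slc34a1. Nherf2 is known from glomeruli and blood vessels as well as tubules, and in podocytes it links podocalyxin to ezrin.

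The promoters of both scaffolds and of the exchanger they bind are shown because the scaffolds lie on chromosome 10, the chromosome of the congenic segment, and were the members with a strain comparison. The sequences are RefSeq windows of 300 bases, from 250 before to 50 after the annotated start, on rat assembly GRCr8, written 5′ to 3′ on the strand of the gene. They are of the reference assembly, not of the rats of this study, so they show no difference between the strains. Nherf2 is at chr10:14177470-14177769 on the minus strand, Nherf1 at chr10:100901915-100902214 on the plus strand and Slc9a3 at chr1:30995953-30996252 on the minus strand. Capitals mark the GC box GGGCGG, the CCAAT box CCAAT and the E box CACGTG on either strand; TATAAA was also searched, on both strands, and is in none of these windows.
Nherf2: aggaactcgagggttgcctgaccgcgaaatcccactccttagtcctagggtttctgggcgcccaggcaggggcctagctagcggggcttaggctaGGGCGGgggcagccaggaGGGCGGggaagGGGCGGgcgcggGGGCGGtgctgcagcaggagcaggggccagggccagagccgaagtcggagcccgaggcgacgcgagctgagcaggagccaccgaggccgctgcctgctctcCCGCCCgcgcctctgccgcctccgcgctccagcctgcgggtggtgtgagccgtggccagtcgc
Nherf1: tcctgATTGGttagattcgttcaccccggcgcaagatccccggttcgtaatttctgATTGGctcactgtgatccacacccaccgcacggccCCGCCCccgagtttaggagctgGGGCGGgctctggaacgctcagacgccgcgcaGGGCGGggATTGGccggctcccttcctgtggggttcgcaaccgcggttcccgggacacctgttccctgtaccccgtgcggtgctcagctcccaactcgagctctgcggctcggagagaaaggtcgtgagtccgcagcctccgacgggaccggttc
Slc9a3: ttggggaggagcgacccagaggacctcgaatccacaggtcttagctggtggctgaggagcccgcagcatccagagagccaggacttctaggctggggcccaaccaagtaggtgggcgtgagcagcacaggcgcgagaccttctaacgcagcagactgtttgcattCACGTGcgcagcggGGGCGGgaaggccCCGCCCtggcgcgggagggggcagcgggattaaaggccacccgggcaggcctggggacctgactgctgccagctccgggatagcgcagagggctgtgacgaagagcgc
The Nherf2 window held 5 GC boxes and no CCAAT box, with 73.3% G and C. The Nherf1 window held 3 GC boxes and 3 CCAAT boxes, with 65.3% G and C. The Slc9a3 window held 2 GC boxes and 1 E box. Of the 33469 windows of this length in the table, 33.1% held a GC box, 37.5% a CCAAT box, 6.42% an E box and 14.2% the TATAAA letters. The match of a window to these letters is a description of sequence and says nothing of which factor binds there.

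The arrays came scaled to a common mean, with medians of 294.5 to 334.3 signal units (design A), 472.8 to 519.5 (B) and 491.3 to 524.4 (C). With so few arrays a strain, precision is limited throughout. Before log2 values were taken, signals under the 25th percentile were raised to it (85.1, 140.1 and 153.6 on A, B and C, the floor). A probe set passed the filter where its signals, before that floor, averaged at least the median of its design (319.5 on A, 485.8 on B, 510.3 on C). Those that passed were tested for a strain difference on B and C only. Of the 11 probe sets 7 passed this filter, which were Slc9a3 and Ezr on A, 2 of Nherf2 and 1 of Nherf1 on B, and both on C. Kidney identity was clear from tubule markers on design A, where all 19 probe sets of 12 proximal tubule genes passed the filter, as did 9 of 10 probe sets for 5 genes of the thick ascending limb, among them Umod and Slc12a1. The summed signal of the proximal tubule markers was 243091 in kidney 4 and 211165 in kidney 5, and between 227093 and 269169 in Dahl S kidneys 1 to 3.

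Among the exchangers, the Slc9a3 probe set M85300_at of design A (gene on chromosome 1) gave 1249.6 in kidney 4 and 698.6 in kidney 5, against 577.7, 651.4 and 741.8 in Dahl S kidneys 1, 2 and 3 (mean 657 ± 82.2, SD, n = 3). Kidney 4 alone stood above the others, at 1.90 times the Dahl S mean and 1.68 times the next highest kidney, while kidney 5 lay within the Dahl S range. Of the 4411 probe sets of design A that passed the filter, 41 (0.929%) had kidney 4 at least as far above the next kidney, and in 17.6% kidney 4 was the highest. The proximal tubule marker sum of kidney 4 lay inside the Dahl S range given above, and so did that of the thick ascending limb (75737 in kidney 4 and 64305 in kidney 5, against 62758 to 79555 in Dahl S kidneys). Other marker sums of kidney 4 lay outside the Dahl S range. It was above that range for the distal tubule and collecting duct (46142 in kidney 4, against 35428 to 41746 in Dahl S kidneys) and for podocytes (2636, against 1919 to 2074). It was below that range for smooth muscle and stroma (33085, against 39521 to 49570) and for leukocytes (21874, against 25619 to 34417). Kidney 4 was also below it for endothelial (2012.0, against 2029.9 to 2456.6) and adrenal markers (941.3, against 1027.8 to 1268.6). The same held for skeletal muscle markers (509.2, against 852.3 to 938.8), none of which passed the filter. The part of these cell types in the Slc9a3 value was not tested. In bulk tissue, fewer cells of a type and less RNA per cell cannot be told apart.

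Slc9a2 (NHE2), an apical exchanger known in kidney from distal segments, was at the low end of the design. Its probe set L11236cds_s_at (gene on chromosome 9) gave 87.7 and 67.5 in kidneys 4 and 5, against 109.9, 77.2 and 30.2 in Dahl S kidneys 1, 2 and 3. Of these values 3 lay below the floor of 85.1, and the groups of kidneys overlapped. Slc9a4 (NHE4), a basolateral exchanger of gastric parietal cells and the thick ascending limb, gave 29.5 and 104.9 in kidneys 4 and 5, against 76.9, 81.9 and 106.0 in Dahl S kidneys (probe set M85301_at, gene on chromosome 9). Here too 3 of the 5 values lay below the floor, so neither gene had an order among the kidneys that could be read, and neither passed the filter. The probes carry no detection call here, so that these values do not show whether the transcripts were present.

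Ezr, the ERM protein that anchors the scaffolds to actin in microvilli and podocyte foot processes, was far above the filter in every kidney of design A. Its probe set X67788_at (gene on chromosome 1) gave 6461.5 and 6436.4 in kidneys 4 and 5, against 5131.8, 5820.6 and 6039.8 in Dahl S kidneys 1, 2 and 3 (mean 5664 ± 474, SD, n = 3). Both unsettled kidneys lay above all Dahl S kidneys, each at 1.14 times their mean, and the whole range over the 5 kidneys was 1.26-fold. On this design 8.82% of the probe sets that passed the filter had kidneys 4 and 5 both above kidneys 1 to 3, and 10.1% had both below. The ratio of 3′ to 5′ probe sets for GAPDH, a sign of RNA quality, separated the same kidneys, at 1.04 and 1.043 in kidneys 4 and 5 and between 1.065 and 1.072 in kidneys 1 to 3. The summed signal of the smooth muscle and stroma markers separated them too, at 33085 and 39078 in kidneys 4 and 5 and between 39521 and 49570 in kidneys 1 to 3. The part of either in the Ezr values was not tested.

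**Figure D1:**
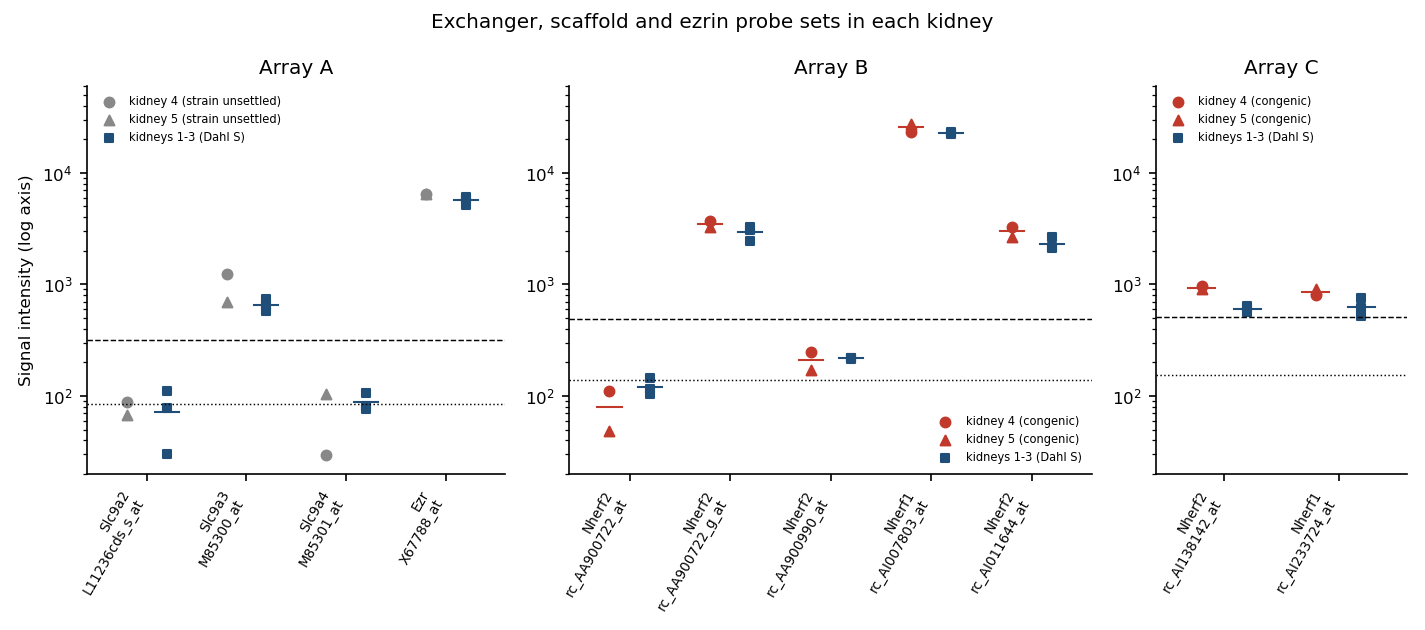
Signal intensity (log axis) of the 11 probe sets in each kidney on designs A, B and C, with kidneys 4 and 5 left of kidneys 1 to 3, bars at the group means of labelled strains, a dotted line at the floor and a dashed line at the filter. Slc9a2, Slc9a4 and 2 Nherf2 probe sets lie below the filter, and the Slc9a3 value of kidney 4, 1249.6, stands above the other 4 kidneys.

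The scaffold Nherf2 had its highest values in the congenic kidneys on design C. Its probe set rc_AI138142_at (gene on chromosome 10) gave 960.5 and 914.0 in congenic kidneys 4 and 5, against 616.3, 637.0 and 562.6 in Dahl S kidneys 1, 2 and 3. The strains did not overlap, with 277 signal units between the lowest congenic and the highest Dahl S value. The means were 937 ± 32.9 in congenic (SD, n = 2) and 605 ± 38.4 in Dahl S kidneys (SD, n = 3), a fold of 1.55 and a log2 difference of 0.63 (SE 0.14). Of the 4420 tested probe sets of design C, 57 (1.29%) had a larger positive difference. These are among the values on which the gene was chosen.

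On design B the Nherf2 probe sets differed among themselves. The probe set rc_AI011644_at gave 3287.6 and 2670.5 in congenic kidneys 4 and 5, against 2666.1, 2097.5 and 2161.0 in Dahl S kidneys 1, 2 and 3 (2979 ± 436 and 2308 ± 312, SD, log2 difference 0.37, SE 0.17). The strains were apart by only 4.4 signal units, between congenic kidney 5 and Dahl S kidney 1, and they overlapped after quantile normalisation. Without congenic kidney 4 the log2 difference was 0.22. The probe set rc_AA900722_g_at gave 3695.9 and 3239.1 in congenic kidneys, against 3057.9, 2459.8 and 3300.1 in Dahl S kidneys, and there the strains overlapped (log2 difference 0.25, SE 0.17, 0.12 without Dahl S kidney 2 and 0.15 without congenic kidney 4). In both of these probe sets congenic kidney 4 was the highest of the 5 and Dahl S kidney 2 the lowest.

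The other Nherf2 probe sets of design B lay under the filter. The probe set rc_AA900722_at gave 111.2 and 48.1 in congenic kidneys, against 145.5, 114.5 and 104.2 in Dahl S kidneys, with 4 of the 5 values below the floor of 140.1. It shares the accession in its name with rc_AA900722_g_at, whose signal was above the filter in every kidney. The probe set rc_AA900990_at gave 248.6 and 171.0 in congenic kidneys and between 215.8 and 220.1 in Dahl S kidneys, so the congenic values lay on either side of the Dahl S ones. The positive difference of design C was thus shared in sign by the 2 tested probe sets of design B, while the means of the other 2 were lower in congenic kidneys (79.7 ± 44.6 and 210 ± 54.9) than in Dahl S kidneys (121 ± 21.5 and 218 ± 2.15, SD).

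Nherf1, the brush border scaffold, was above the filter in every kidney on both designs. On design C it was so only narrowly in Dahl S kidney 2, at 520.2 against a filter of 510.3. On design B the probe set rc_AI007803_at (gene on chromosome 10) gave 23394.8 and 27623.1 in congenic kidneys 4 and 5, against 22509.4, 23009.3 and 22946.7 in Dahl S kidneys 1, 2 and 3. The Dahl S kidneys lay close together (22822 ± 272, SD, n = 3) and congenic kidney 5 stood apart from both strains, so that the difference (log2 0.16, SE 0.14) was 0.04 (0.036) without congenic kidney 5 and 0.28 without congenic kidney 4. On design C the probe set rc_AI233724_at gave 808.8 and 900.7 in congenic kidneys, against 615.8, 520.2 and 762.4 in Dahl S kidneys (855 ± 65.0 and 633 ± 122, SD). The strains were 46.4 signal units apart, with a fold of 1.37 and a log2 difference of 0.45 (SE 0.19). Congenic kidney 5 was the highest for Nherf1 on both designs, whereas congenic kidney 4 was the highest for the Nherf2 probe sets that passed the filter. The same number need not be the same kidney on both designs.

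All 5 tested scaffold probe sets had a positive log2 difference, and in 4 of them every congenic value lay above every Dahl S value. On design B this held for 2 of 3 member probe sets, where 7.73% of all tested probe sets were higher in congenic kidneys without overlap, and on design C for 2 of 2, against 10.2%. The median log2 difference of the members was 0.25 on design B and 0.54 on design C, beside −0.005 and −0.01 over all tested probe sets of those designs. The 5 probe sets passed the filter in each strain's mean, not through the congenic kidneys alone. With limma and Benjamini-Hochberg adjustment over the design, no member passed an adjusted p of 0.05. That threshold was passed by 4 of 4385 probe sets on design B (0.0912%; 1 higher in congenic kidneys, 0.0228%, and 3 lower, 0.0684%) and by 0 of 4420 on design C (0%). An unadjusted p under 0.05 was given to 153 probe sets on design B (3.49%) and to 274 on design C (6.2%). Since the members were chosen on this contrast, nothing is read from these counts.

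**Figure D2:**
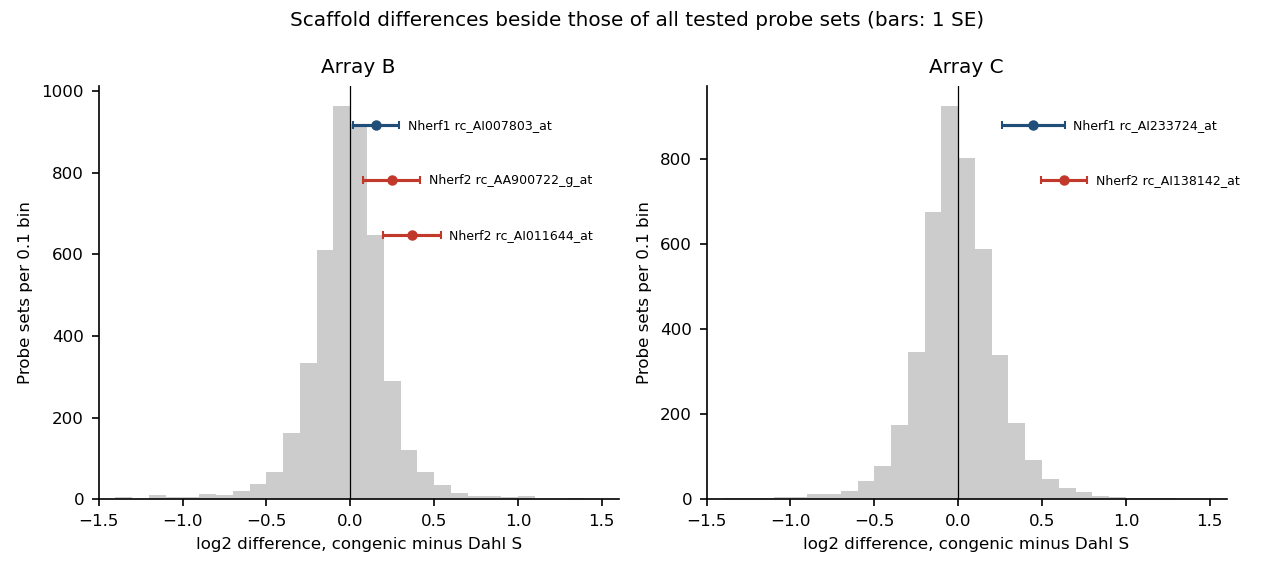
Log2 difference, congenic minus Dahl S, of the 5 tested scaffold probe sets (points, with bars of 1 SE) above the histogram of all tested probe sets (4385 on design B, 4420 on design C; the height of the points has no meaning). The Nherf2 probe set of design C, at 0.63, lies farthest to the right of the scaffolds.

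The GAPDH 3′ to 5′ ratio also separated the strains on design C, at 1.053 and 1.045 in congenic kidneys 4 and 5 and between 1.090 and 1.108 in Dahl S kidneys. On design B it did not, at 1.074 and 1.171 in congenic and between 1.111 and 1.177 in Dahl S kidneys. Proximal tubule markers of design C had a summed signal of 98745 and 86263 in congenic kidneys, against 93596, 111520 and 107346 in Dahl S kidneys, with overlap between the strains, and design B carried none of these markers. Most of that summed signal came from 1 Miox probe set, at 74246 and 65328 in congenic and between 70899 and 85966 in Dahl S kidneys. Of the 4 tested probe sets of the list, 2 had a positive and 2 a negative log2 difference. Ggt1, a brush border transpeptidase, was lower without overlap, at 11134.0 and 10663.5 in congenic kidneys, against 11684.3, 12297.5 and 13190.9 in Dahl S kidneys (log2 difference −0.18, SE 0.14). Slc22a8 (0.03) and the 2 Miox probe sets (0.015 and −0.20) overlapped between the strains. Of the 5 smooth muscle and stroma probe sets of design C, 4 were lower in congenic kidneys by their log2 difference (median of the 5, −0.35), and their summed signal was 7069 and 8670 in congenic kidneys and between 8372 and 9765 in Dahl S kidneys. Acta2, the smooth muscle actin, gave 682.4 and 539.3 in congenic kidneys, against 748.4, 750.6 and 822.5 in Dahl S kidneys. Col3a1, a fibrillar collagen, gave 910.0 and 1193.2 in congenic kidneys, against 1627.7, 1394.4 and 1530.4 in Dahl S kidneys for 1 probe set (log2 difference −0.54, SE 0.17), and overlapping values for the other (−0.005). Leukocyte markers of design C had a summed signal of 10507 and 8706 in congenic kidneys and between 8554 and 11308 in Dahl S kidneys. Of their 6 tested probe sets 4 had a positive and 2 a negative log2 difference. Among them Cd3e, a CD3 subunit of the T cell receptor complex, gave 1313.2 and 1039.0 in congenic kidneys, against 922.0, 861.9 and 781.7 in Dahl S kidneys. Laptm5 ran the other way, with overlap (log2 difference −0.56, SE 0.31). Distal tubule and collecting duct markers of design C had a summed signal of 16956.1 and 16111.5 in congenic kidneys, against 13553.9, 16296.4 and 12046.8 in Dahl S kidneys. Both tested probe sets of that list, of Calb1 and Aqp4, had a positive log2 difference (0.24, SE 0.17, and 0.36, SE 0.35), with overlap. No marker of design C passed an adjusted p of 0.05 (limma). The part of the GAPDH ratio or of these cell types in the scaffold values of design C was not tested.

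**Figure D3:**
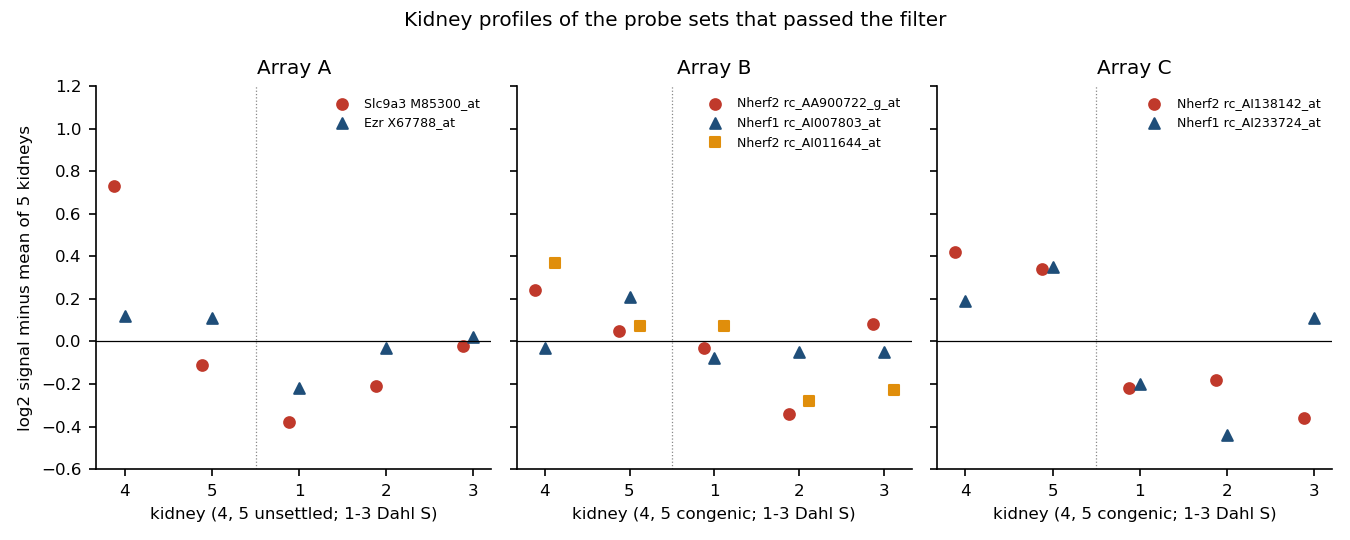
Log2 signal of each probe set that passed the filter, less its mean over the 5 kidneys, by kidney, with kidneys 4 and 5 left of the dotted line and Dahl S kidneys 1 to 3 right of it. On design A Slc9a3 peaks in kidney 4 at 0.73, and on design C both scaffolds are above 0 in both congenic kidneys.

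The scaffolds lie far apart on chromosome 10, and the genes around each were compared by gene order on GRCr8. For each scaffold the 5 nearest protein-coding genes with a tested probe set on B or C were taken on either side, a choice made after the scaffold values were seen. Genes without a tested probe set were passed over, so these lay up to 24 genes from Nherf2 and up to 42 from Nherf1. Before Nherf1 the nearest was Cdc42ep4, 24 genes away, so the immediate surroundings are thinly covered. Around Nherf2, the 13 probe sets of 10 genes had a median log2 difference of −0.04 and ranged from −0.14 (Prss27, a serine protease) to 0.45 (Ntn3, a netrin). None of them was higher or lower in congenic kidneys without overlap, where over all tested probe sets 7.73% were higher and 9.44% lower on design B, and 10.2% higher and 12.2% lower on design C. Ntn3 gave 1994.2 and 1359.9 in congenic kidneys, against 950.5, 1807.1 and 1011.1 in Dahl S kidneys.

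Around Nherf1, the 13 probe sets of 10 genes had a median log2 difference of −0.002 and ranged from −0.40 to 0.26. None was higher in congenic kidneys without overlap and 3 were lower, those of Nt5c, a nucleotidase, Abca8a, an ABC transporter, and Jpt1 on design C, beside the same shares over all tested probe sets (9.44% lower on B, 12.2% on C). Nt5c gave 706.7 and 970.8 in congenic kidneys, against 1186.4, 1128.5 and 983.1 in Dahl S kidneys. The nearest tested neighbour of Nherf1, Nat9, gave 656.3 and 776.3 in congenic kidneys, against 605.8, 565.2 and 738.4 in Dahl S kidneys, with overlap.

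**Figure D4:**
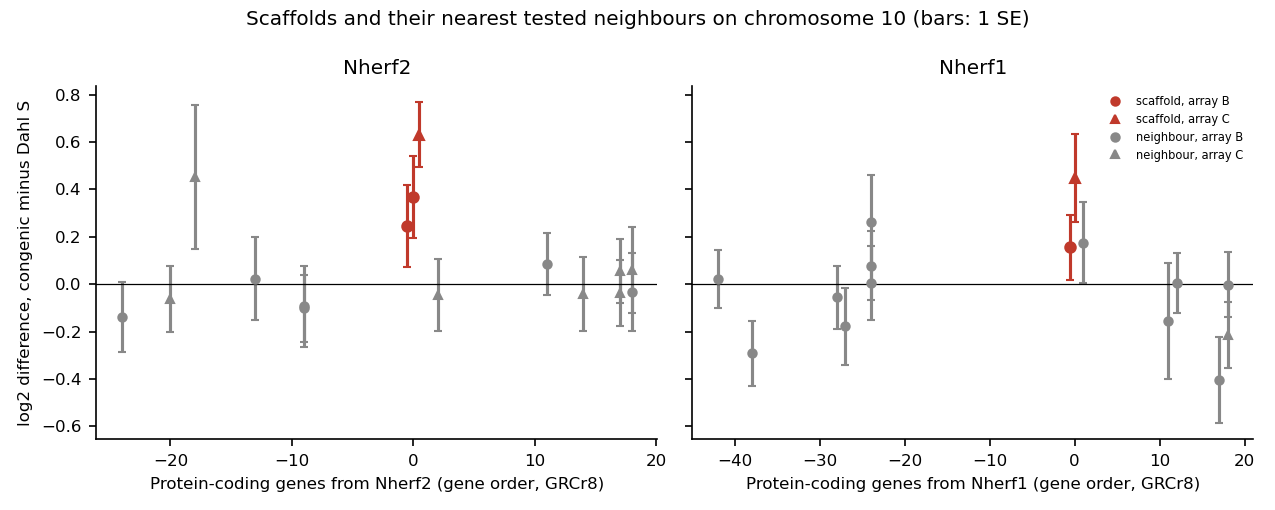
Log2 difference, congenic minus Dahl S, of Nherf2 and Nherf1 (red) and of their nearest tested neighbours (grey), with bars of 1 SE, by the number of protein-coding genes from the scaffold in gene order. Around Nherf2 the neighbours run from −0.14 to 0.45 and around Nherf1 from −0.40 to 0.26.

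Of the other exchangers of the family, a probe set passed the filter for Slc9a8 alone, the exchanger NHE8 of the proximal tubule brush border and of the Golgi. Slc9a8 gave 2439.4 and 2215.8 in congenic kidneys, against 2287.7, 2237.7 and 2679.2 in Dahl S kidneys on design C, so the strains overlapped (log2 difference −0.04, SE 0.15). Slc9a9, an endosomal exchanger, gave 404.6 and 395.5 in congenic kidneys, against 532.7, 604.4 and 434.5 in Dahl S kidneys on design B, just under the filter of 485.8 by its mean of 474. Its 2 probe sets on design C were below the floor in every kidney, as were those of Slc9a5 on C and Slc9b1 on B.

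Genes whose products bind or regulate Slc9a3, or bind the scaffolds and ezrin, were taken from 4 lists together with the other exchangers and ERM proteins. On design B 21 probe sets of these lists were tested, 6 with a positive and 15 with a negative difference, and on design C 12, with 7 and 5. None passed an adjusted p of 0.05 in either direction (limma, against 0.0912% and 0% of all tested probe sets). On design B 3 of the 21 were higher in congenic kidneys without overlap, against 7.73% of all tested, and 5 of the 21 were lower, against 9.44%. The 3 were Podxl, Slc26a6 and Slc34a3, and the 5 were Akt2, Ahcyl1, Dpp4, Pth1r and 1 probe set of Rock2. On design C 1 of the 12, Plcb3, was higher without overlap, against 10.2%, and 0 lower, against 12.2%.

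Podxl, which encodes podocalyxin, the sialoprotein of podocytes that Nherf2 links to ezrin, had the largest positive difference of these lists on both designs. It gave 5105.7 and 3188.2 in congenic kidneys, against 2469.1, 2550.9 and 3010.4 in Dahl S kidneys on design B (log2 difference 0.60, SE 0.22, limma adjusted p = 0.998). On design C it gave 1887.1 and 1245.6 in congenic kidneys, against 1156.5, 1326.6 and 777.4 in Dahl S kidneys, with overlap (log2 difference 0.53, SE 0.27, limma adjusted p = 0.825). On both designs the kidney numbered 4 was the highest, as for the Nherf2 probe sets that passed the filter. Whether that number is the same kidney on each design is not stated. The podocyte markers were 7 genes, of which 3 were on design B (Podxl, Cd2ap and a further probe set under the filter), with a summed signal of 8266 and 6637 in congenic kidneys and between 6082 and 6784 in Dahl S kidneys. None of them was at 0. Cd2ap, a podocyte adaptor, ran the other way, at 2796.4 and 3263.3 in congenic kidneys, against 3467.2, 3294.4 and 3544.7 in Dahl S kidneys. Endothelial markers summed to 6660 and 5949 in congenic kidneys and to between 5137 and 6290 in Dahl S kidneys on design B, and to 5407 and 4902 in congenic and between 4790 and 5347 in Dahl S kidneys on design C. Of the tested endothelial probe sets, 3 had a positive and 1 a negative log2 difference on design B, and 1 and 2 on design C. The negative one on B was Pecam1 (−0.02). The positive one on C was Emcn, at 3781.8 and 3191.6 in congenic kidneys, against 3234.9, 2947.6 and 3067.9 in Dahl S kidneys, with overlap (0.17, SE 0.14). On design C Tie1, an endothelial receptor, gave 384.5 and 252.1 in congenic kidneys, against 818.5, 689.1 and 486.0 in Dahl S kidneys (log2 difference −1.06, SE 0.27, limma adjusted p = 0.739). On design B the related receptor Tek gave 1443.3 and 1320.9 in congenic kidneys, against 795.1, 1313.8 and 1050.3 in Dahl S kidneys for 1 probe set (log2 difference 0.42, SE 0.22), and overlapping values for the other (0.02). Cdh5, the endothelial cadherin, gave 1056.0 and 987.4 in congenic kidneys, against 917.2, 894.5 and 963.0 in Dahl S kidneys on design B, and overlapped on design C. The part of podocyte or endothelial RNA in the Nherf2 values was not tested.

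Slc26a6, an anion exchanger that works beside Slc9a3 in the brush border and binds the same family of scaffolds, gave 1393.1 and 1486.3 in congenic kidneys, against 1065.8, 1299.1 and 1104.9 in Dahl S kidneys on design B (log2 difference 0.32, SE 0.15, limma adjusted p = 0.998). Rock2, a protein kinase that acts on ezrin-family proteins and the cytoskeleton, gave 499.7 and 497.5 in congenic kidneys, against 583.0, 627.7 and 617.9 in Dahl S kidneys for 1 of its probe sets, and overlapping values for the other (log2 differences −0.29 and −0.07). Pth1r, the parathyroid hormone receptor that couples through Nherf1, gave 2405.1 and 2364.1 in congenic kidneys, against 2417.6, 3588.9 and 2687.5 in Dahl S kidneys, a gap narrower than the spread among the Dahl S kidneys. Plcb3, a phospholipase C that binds Nherf2, gave 1580.2 and 1673.0 in congenic kidneys, against 1445.5, 1430.6 and 1337.8 in Dahl S kidneys on design C (log2 difference 0.21, SE 0.13, limma adjusted p = 0.865). None of these passed the threshold.

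The ERM relatives of ezrin and the related scaffold Pdzk1 (also called Nherf3) overlapped between the strains. Rdx (radixin) averaged 3147 ± 306 in congenic and 3434 ± 140 in Dahl S kidneys, and Msn (moesin) 11094 ± 953 in congenic and 11063 ± 1226 in Dahl S kidneys, both on design B (SD, n = 2 congenic and 3 Dahl S). Pdzk1 averaged 1737 ± 130 in congenic and 1831 ± 519 in Dahl S kidneys on design C. Dpp4, a brush border peptidase that binds Slc9a3, averaged 18056 ± 1366 in congenic and 19476 ± 704 in Dahl S kidneys, without overlap, although congenic kidney 4 (19022.3) and Dahl S kidney 1 (19068.7) nearly met. Chp1, an obligate partner of sodium-hydrogen exchangers, averaged 9849 ± 657 in congenic and 8567 ± 1551 in Dahl S kidneys with overlap. Both were measured on design B.

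**Figure D5:**
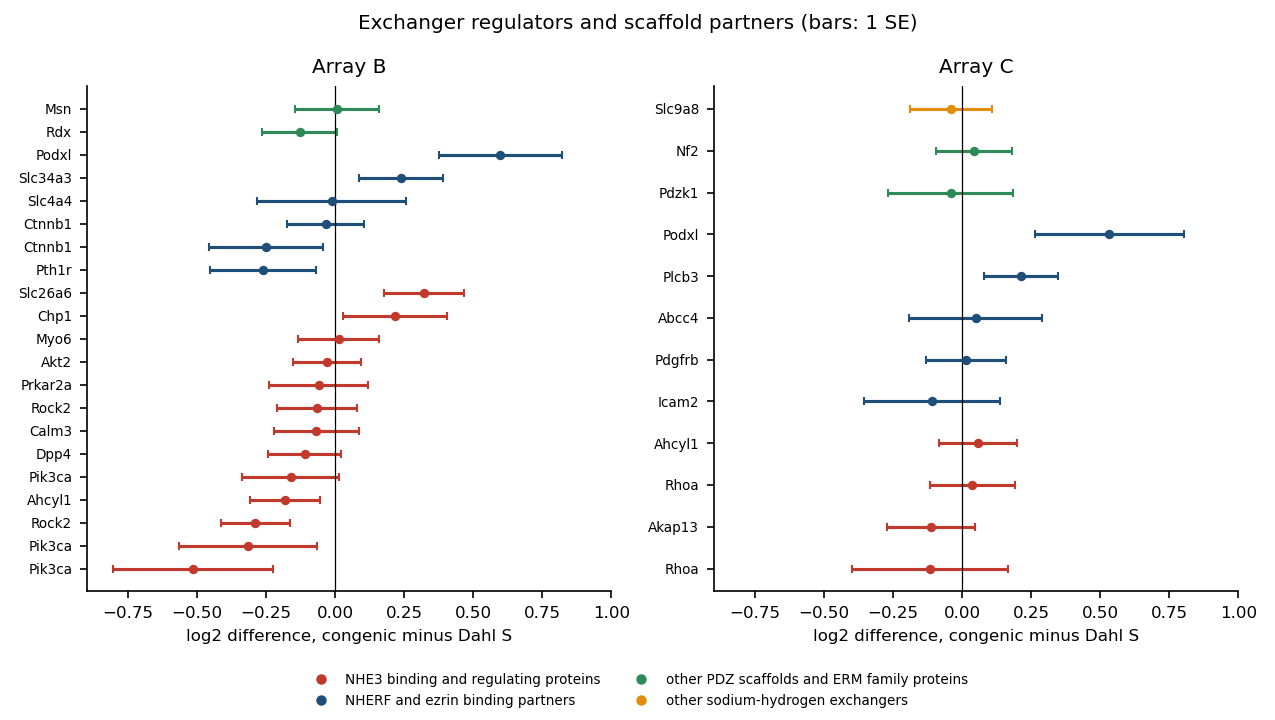
Log2 difference, congenic minus Dahl S, with bars of 1 SE, of every tested probe set of the 4 lists on designs B and C, coloured by list; a gene with several probe sets has a line for each. Podxl stands farthest to the right on both designs, at 0.60 and 0.53.

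The genes with the profile most like each member were found as those with the smallest root mean square difference between log2 profiles centred over the 5 arrays of a design, among named probe sets that passed the filter (3683 on design A, and on design B 3330 for Nherf1 and 3329 for Nherf2). For Slc9a3 they were Casp2 (0.104), Mxi1 (0.109) and Ier3 (0.116), each highest in kidney 4, where a flat profile would differ from Slc9a3 by 0.384. Casp2 gave 832.1 in kidney 4 and 481.0 in kidney 5, against 339.8, 424.5 and 424.2 in Dahl S kidneys. For Ezr they were Becn1 (0.014), Klk1c12 (0.027) and Trappc6b (0.033), where a flat profile would differ by 0.122. Klk1c12 belongs to a family of near-identical kallikrein genes that a probe set may not tell apart.

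For Nherf1 on design B the genes with the most alike profile were Pias4 (0.029), Rtfdc1 (0.034) and Trabd (0.038), with congenic kidney 5 the highest in each, where a flat profile would differ by 0.108. For Nherf2, by its brightest probe set rc_AA900722_g_at on design B, they were Ctc1 (0.033), Nop53 (0.036) and Pfn2 (0.040), with congenic kidney 4 the highest in each, where a flat profile would differ by 0.194. These likenesses rest on 5 arrays of 1 design and were sought among all named probe sets past the filter. Slc9a2 and Slc9a4 had no probe set past the filter and no profile was drawn for them.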

How the data were processed

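The authors deposited 1 linear intensity for each probe set, from 0 to 92415. How these were computed is not stated in the sources used here, but arrays share a scale: leaving out the extreme 2% at each end, their means span 999.5 to 1000. No further scaling was applied, and whether a background was subtracted is unknown. Probe sets were named by platform annotation, updated through gene identifiers to RefSeq (rat assembly GRCr8; 6985 of 7006 probe sets with 1 symbol matched on A, 5333 of 5351 on B, 5804 of 5821 on C), which also gave promoters and gene order. Promoter windows matched all 6 members.

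Within each design, probe sets passed the filter where the mean of the deposited values reached the median of all values, with the 59 control probe sets left out. These were 4411, 4385 and 4420 probe sets on A, B and C. Values under the 25th percentile were then set to it and taken to log2. Design A was not tested. Congenic minus Dahl S differences were fitted with limma 3.58.1 (lmFit, eBayes; R 4.3.3), on B and C apart, with Benjamini-Hochberg adjustment over the design and a threshold of 0.05; standard errors are limma's. The procedure was tested on simulated data. Alternatives changed normalisation, floor, filter and variance model and left out each array. Members and lists were chosen with earlier results of these data known. Named genes were all members and the 3 most alike profiles per member. Also named were the 2 per list and design with the largest difference among those without overlap. The other exchangers, Rdx, Msn, Pdzk1, Dpp4, Chp1, Akt2, Ahcyl1, Slc34a3 and Podxl on C were named after their values were seen. So were Miox, Slc22a8, Laptm5, Calb1, Aqp4, Pecam1, Emcn and the neighbours on chromosome 10.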

Additional observations from a re-analysis of the deposited data

Results flagged for a closer look

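On design A, kidneys 4 and 5 entered no comparison because their strain is unsettled, and 3 of their values lay above those of all Dahl S kidneys. Slc9a3 gave 1249.6 in kidney 4, against a highest Dahl S value of 741.8. Ezr gave 6461.5 in kidney 4 and 6436.4 in kidney 5, against a highest Dahl S value of 6039.8. Both kidneys above kidneys 1 to 3 is a pattern that 8.82% of the probe sets past the filter on that design share.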

How the results depend on the processing

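The direction of all 5 scaffold differences was kept under every alternative that tested them, over 12 settings on design B and 11 on design C, and no scaffold passed the adjusted threshold in any. The filter at the 75th percentile left no scaffold to test on C. The log2 difference ranged from 0.58 to 0.67 for Nherf2 and 0.32 to 0.59 for Nherf1 on C, and on B from 0.12 to 0.34 (rc_AA900722_g_at) and 0.22 to 0.52 (rc_AI011644_at) for Nherf2 and 0.04 to 0.28 for Nherf1, the ends coming from arrays left out. Of the counts without overlap, which were recomputed as an alternative chosen after seeing the data, that of B was 1 in place of 2 with quantile normalisation (Nherf1 was left) and 1 with median scaling (Nherf2 was left), and 2 to 3 with an array left out; that of C was 2 throughout. Calls over the whole of design B numbered 4, and 1 under median scaling, quantile normalisation, either other floor (10th or 40th percentile) or the filter at the 75th percentile, and 0 to 31 with an array left out (31 without congenic kidney 5). On C there were 0, and 2 without a filter, 1 with trend and robust variance, and 0 to 35 with an array left out (35 without congenic kidney 5). The cause was not tested. No paired analysis was possible because congenic kidneys are numbered 4 and 5 and Dahl S kidneys 1 to 3. Signal near the floor limits Slc9a2, Slc9a4 and the dim Nherf2 probe sets.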
